A study of Homo sapiens with 4 samples.

Results

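Genes of retinoic acid signalling were examined in MYCN-amplified BE(2)C cells, a human neuroblastoma line, after knockdown of MYCN. The set comprised 10 genes chosen by symbol out of the 26364 genes listed in every sample. It held the nuclear receptors RARA, RARB, RARG, RXRA and RXRG, the binding proteins CRABP1 and CRABP2, the degrading enzymes CYP26A1 and CYP26B1, and the reductase DHRS3. All 10 were listed in each of the 4 samples. RNA-seq had been performed on 2 control samples (Ctrl), which received non-targeting siRNA, and on 2 MYCN knockdown samples (MYCN KD), which received siRNA against MYCN. Both groups were the same wild type line, incubated with siRNA and a lipid transfection reagent for 6 h, and RNA was extracted the next day. The labels give the siRNA at 80 nM, and the study's methods give it differently. A single siRNA against MYCN was used. The replicates are called biological in the study's methods, but the labels do not say that they were separate cultures. The p-values therefore measure only the spread between these samples that was left after the authors took out unwanted variation.

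Retinoic acid is made from vitamin A and enters the nucleus, where a retinoic acid receptor (RAR) paired with a retinoid X receptor (RXR) binds to response elements in target genes. CRABP proteins carry it inside the cell, CYP26 enzymes break it down, and DHRS3 returns its precursor retinaldehyde to retinol. RARB, CYP26A1, CRABP2 and DHRS3 are themselves well known targets of the receptors. Retinoic acid makes many neuroblastoma lines differentiate, and 13-cis retinoic acid is used in treatment of the disease.

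The samples had totals of 29055819 to 34142988 reads, computed here from the deposited RPKM values, which are reads scaled to gene length and sequencing depth. MYCN, the targeted gene, was lower in both MYCN KD samples, at 1068 and 1073 RPKM in Ctrl against 720.2 and 718.0 RPKM in MYCN KD. This left 0.672 of the Ctrl level (log2 fold change -0.57, adjusted p = 0.00361 from limma), so the comparison is one of less MYCN and not of its absence. The deviations from the group mean of the same-numbered Ctrl and MYCN KD samples were mirror images across genes (r = -0.98 over 11411 genes), and what made them so was not tested. The groups therefore did not give independent estimates of the spread, and the p-values from limma may be too small. The 9 noradrenergic markers were all above a mean of 1 RPKM, with a sum of 2878 to 3146 RPKM in Ctrl and 4056 to 4436 RPKM in MYCN KD. The markers did not all move with this sum. At the limma threshold given below, 5 of the 9 were higher in MYCN KD and 2 were lower. The immune genes PTPRC and CD3E, the epithelial gene CDH1, the glial gene SOX10 and the mesenchymal gene COL1A2 were each below 0.1 RPKM in every sample. The sums of these lists were nevertheless higher in MYCN KD through their other genes. The 5 immune genes summed to 5.00 to 6.03 RPKM in Ctrl and 11.0 to 13.2 RPKM in MYCN KD, and the 5 epithelial genes to 14.6 to 15.4 and 27.2 to 28.6 RPKM. The 5 glial genes summed to 5.70 to 6.14 and 10.0 to 10.8 RPKM, and the 6 mesenchymal genes to 23.0 to 25.1 and 28.5 to 31.1 RPKM. The part of these genes in the results was not tested.

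Of the 10 genes, 5 were clearly expressed and 5 were at or near 0. On the RPKM scale, which allows for gene length, the order of the levels was CRABP1, CRABP2, RARA, RARG and RXRA in both groups. CRABP1 was higher than 98.2% of all genes with any reads, CRABP2 higher than 87.0%, RARA higher than 83.4%, RARG higher than 66.1% and RXRA higher than 60.1%. RARG and RXRA were close neighbours in Ctrl, at 6.68 ± 0.266 and 5.84 ± 0.394 RPKM (SD, n = 2), as were CRABP2 and RARA in MYCN KD, at 30.9 ± 0.853 and 27.0 ± 3.16 RPKM. Neither pair overlapped, although CRABP2 and RARA differed by about the SD between replicates of RARA. RARB and DHRS3 had at most 8 reads in any sample and overlapped each other, and RXRG, CYP26A1 and CYP26B1 had 0 reads in every sample.

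**Figure D1:**
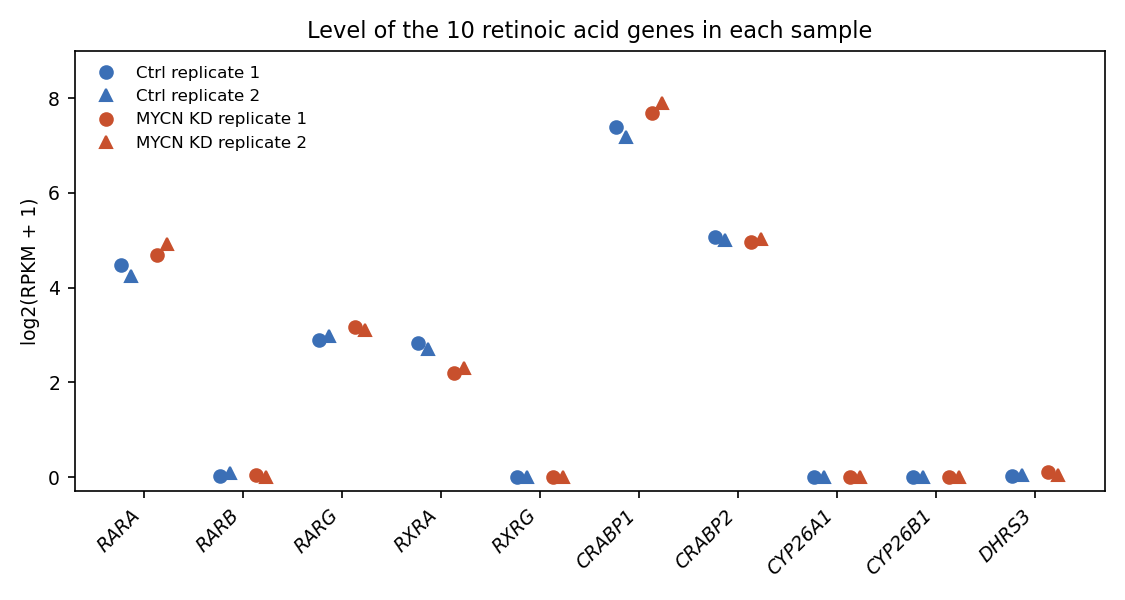
Level of each of the 10 genes in each of the 4 samples, as log2(RPKM + 1), with Ctrl in blue, MYCN KD in red, replicate 1 as circles and replicate 2 as triangles. CRABP1 lies highest in all samples and RARB, RXRG, CYP26A1, CYP26B1 and DHRS3 lie at or near 0 in all of them.

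Upon MYCN knockdown the carrier CRABP1 rose and the receptor RXRA fell, while RARA and RARG had higher values that did not pass the threshold and CRABP2 overlapped between the groups. In bulk RNA, fewer cells with a transcript and less of it per cell cannot be told apart. A limma model of log2(RPKM + 1) was fitted to the 11411 genes whose mean reached 1 RPKM, and p-values were adjusted by Benjamini-Hochberg (threshold 0.05). The added 1 makes changes of weakly expressed genes look smaller. The 5 expressed members passed the filter on low values. At this threshold 48.1% of all tested genes differed (25.3% higher and 22.8% lower in MYCN KD), and of the 5 tested members 1 was higher and 1 was lower. The values of Ctrl and MYCN KD did not overlap for 4 of the 5 members and for 76.2% of all tested genes, so these shares do not set the members apart from other genes. The median log2 fold change was 0.20 over the 5 members and 0.03 over all tested genes. With 2 samples against 2 an exact permutation test of a single gene cannot give a two-sided p below 0.3333, and RARA, RARG, RXRA and CRABP1 each reached it.

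RARA encodes the alpha receptor, the RAR present in most tissues, and spans 38465432 to 38513895 of chromosome 17 (GRCh37, plus strand). Its level was 21.3 and 17.9 RPKM in Ctrl against 24.7 and 29.2 RPKM after knockdown, from 3169, 2501, 3135 and 3941 reads. Both MYCN KD values lay above both Ctrl values, and Ctrl replicate 1 and MYCN KD replicate 2 were the higher samples of their groups. The log2 fold change was 0.44 (standard error 0.129, 95% interval 0.06 to 0.82), a ratio of 1.38 on the RPKM scale (adjusted p = 0.0637 from limma). With each sample rescaled to the same sum of RPKM, the log2 fold change was 0.50 and passed the threshold (adjusted p = 0.0393 from limma), so the call of RARA depends on the scaling. RARA-AS1, an antisense RNA that lies within RARA from 38497119 to 38499388 on the minus strand, had 32 and 31 reads in Ctrl and 78 and 80 reads in MYCN KD, and was named after its values were seen. The sources used here do not state that counting used the strand, so reads of the gene and its antisense RNA cannot be told apart where they overlap.

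RARG encodes the gamma receptor and lies on chromosome 12 from 53604351 to 53626764 on the minus strand. It had 6.49 and 6.86 RPKM in Ctrl against 8.03 and 7.61 RPKM after knockdown. Its values did not overlap between the groups, with a log2 fold change of 0.20 (standard error 0.0533, 95% interval 0.04 to 0.36, adjusted p = 0.0516 from limma). RARG passed the threshold with quantile normalization (0.16, adjusted p = 0.0430 from limma) and with a variance prior without a trend (0.20, adjusted p = 0.0473).

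RARB encodes the beta receptor, which retinoic acid itself induces in many cells, and lies on chromosome 3 from 24729378 to 25639423 on the plus strand. It had 2 and 8 reads in Ctrl and 4 and 1 reads in MYCN KD, and the groups overlapped. The sums of 10 and 5 normalized reads gave a ratio of 0.551 relative to the totals, with an exact 95% interval of 0.148 to 1.77. This interval treats normalized reads as raw counts and covers at most counting error. No difference in RARB was detectable at this depth. Among the RAR transcripts RARA made up 76.6% and 72.1% of the summed RPKM in Ctrl and 75.4% and 79.3% in MYCN KD, RARG made up most of the rest, and RARB made up at most 0.283%. The shares of RARA overlapped between the groups.

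RXRA encodes the alpha retinoid X receptor, a partner of the RARs and of several other nuclear receptors, and lies on chromosome 9 from 137208944 to 137332431 on the plus strand. It had 6.11 and 5.56 RPKM in Ctrl against 3.62 and 3.97 RPKM after knockdown, from 1526, 1299, 769 and 899 reads. The groups did not overlap, MYCN KD being the lower. RXRA fell by 0.51 on the log2 scale (standard error 0.0712, 95% interval of the log2 fold change -0.72 to -0.30, adjusted p = 0.0135 from limma), to 0.651 of the Ctrl level on the RPKM scale. Of all tested genes, 78.7% had a smaller change in either direction. RXRG, the gamma form on chromosome 1 from 165370159 to 165414592, had 0 reads in each sample. Taken as a raw count, a value of 0 allows up to 3 reads in a sample, or 0.0879 to 0.103 RPM (RPKM without the scaling to length).

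The beta form RXRB is not among the 10 genes, and its level could not be read from these values. It was listed with 3 and 2 reads in Ctrl and 4 and 6 reads in MYCN KD. Its listed RPKM imply a length of 18110 bases, against 3897 bases of annotated exons. Of 34 listed protein-coding genes within 500 kb of RXRB on chromosome 6, 23 were likewise below 0.1 RPKM in every sample. The summed level of all RXR transcripts is therefore not given.

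The ratio of RARA to RXRA on the RPKM scale was 3.48 and 3.23 in Ctrl against 6.83 and 7.35 after knockdown. A ratio within a sample does not change when all values of that sample are multiplied by the same factor. Other kinds of normalization can change it. The values of the groups lay far apart beside the gap between replicates. The ratio of RARG to RXRA was 1.06 and 1.24 in Ctrl against 2.22 and 1.92 after knockdown, also without overlap. In MYCN KD, RARA and RARG lay above their Ctrl values and RXRA below, so neither ratio could overlap. The lack of overlap is therefore no further result. A ratio shows that the genes changed unequally and not which of them changed.

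**Figure D2:**
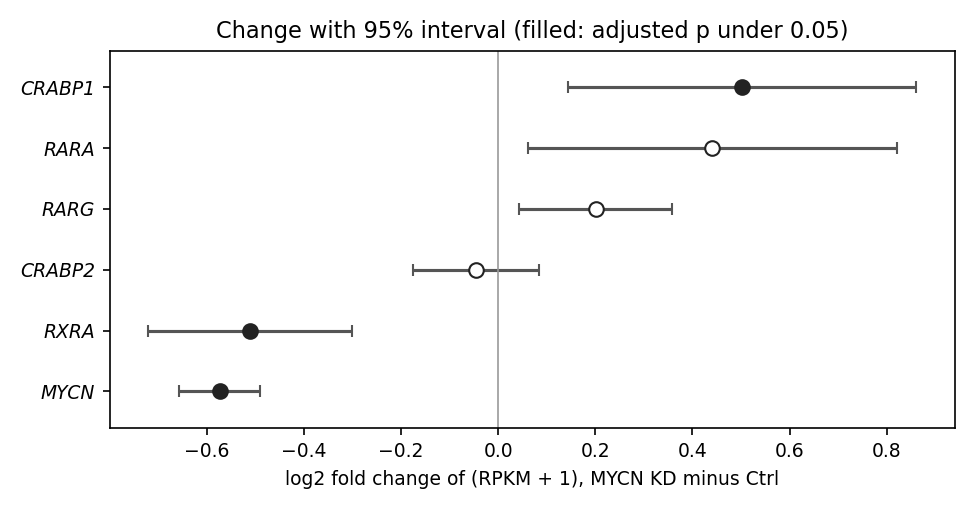
Log2 fold change of (RPKM + 1), MYCN KD minus Ctrl, for the 5 tested members and MYCN, with unadjusted 95% intervals from limma. CRABP1, RXRA and MYCN (filled) passed the adjusted threshold, and RARA and RARG (open) did not although their unadjusted intervals lie above 0.

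CRABP1 and CRABP2 encode small cytosolic proteins that hold retinoic acid. CRABP1 is held to direct it towards degradation and to act outside the nucleus, and CRABP2 to deliver it to the RARs. CRABP1 lies on chromosome 15 from 78632695 to 78640567 on the plus strand and had 167 and 143 RPKM in Ctrl against 204 and 237 RPKM after knockdown. Both MYCN KD samples were above both Ctrl samples, and Ctrl replicate 1 and MYCN KD replicate 2 were again the higher samples of their groups. CRABP1 rose with a log2 fold change of 0.50 (standard error 0.122, 95% interval 0.14 to 0.86, adjusted p = 0.0422 from limma), a ratio of 1.42 on the RPKM scale. Without the filter on low values, when 19908 genes were tested, the change was the same but no longer passed the threshold (adjusted p = 0.0677 from limma).

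CRABP2, on chromosome 1 from 156669398 to 156675608 on the minus strand, had 32.6 and 31.3 RPKM in Ctrl against 30.3 and 31.5 RPKM after knockdown. Its groups overlapped, with a log2 fold change of -0.05 (standard error 0.0439, 95% interval -0.17 to 0.08, adjusted p = 0.440 from limma), and the sign turned with each sample rescaled to the same sum of RPKM (0.01). CRABP1 stood at 5.14 and 4.57 times the RPKM of CRABP2 in Ctrl and at 6.72 and 7.52 times in MYCN KD.

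**Figure D3:**
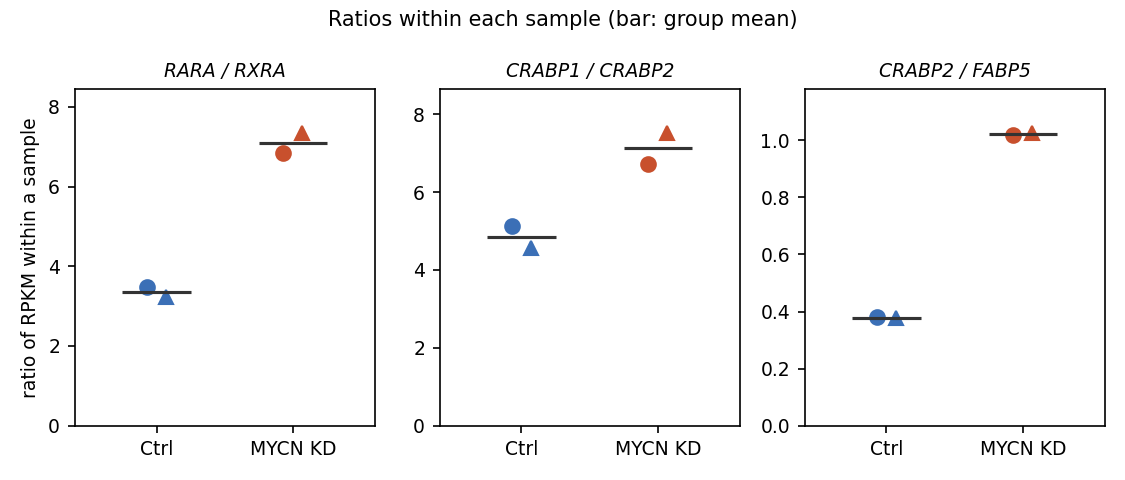
Ratios of RPKM within each sample for RARA to RXRA, CRABP1 to CRABP2 and CRABP2 to FABP5, with Ctrl in blue, MYCN KD in red, replicate 1 as circles, replicate 2 as triangles and bars at the group means. Every MYCN KD value lies above every Ctrl value in the 3 panels, for example 6.83 and 7.35 against 3.48 and 3.23 for RARA to RXRA.

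Among the members, the enzymes that remove retinoic acid or its precursor were at or near 0 in all samples. CYP26A1, on chromosome 10 from 94833232 to 94837642, and CYP26B1, on chromosome 2 from 72356367 to 72374991, encode cytochromes that oxidize retinoic acid, and each had 0 reads in each sample. DHRS3, on chromosome 1 from 12627939 to 12678216, had 1 and 2 reads in Ctrl and 4 and 2 reads in MYCN KD. Its sums of 3 and 6 normalized reads gave a ratio of 2.20 relative to the totals. The exact 95% interval of 0.471 to 13.6 again treats them as raw counts and covers at most counting error. For none of these enzymes was a difference detectable at this depth. CYP26C1, the remaining gene of that family, had 1 read in Ctrl replicate 1 and 0 reads in the other samples.

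RARB and CYP26A1 carry letters of the receptors' own response element beside a start site, which is why these stretches are shown. RefSeq promoters (GRCh38.p14) covering 250 bases before to 50 bases after a start were found for all 10 members, 19 promoters in all, and the stretches printed were matched letter by letter to GRCh37. On both strands, a direct repeat of GTTCA, with 6 bases of any kind between its 2 copies, was present in 20 of 35116 RefSeq promoters (0.0570%) and in 2 promoters of the members. The pattern searched was the response element of the RARB type, so the match in RARB was set by that choice. The 2 shares are therefore no test of enrichment among the members. The stretch of RARB lies at chr3:25469695-25469724 and that of CYP26A1 at chr10:94833553-94833582, both on the plus strand, 59 to 30 bases before the third listed start of RARB and 97 to 68 bases before the second of CYP26A1, with the repeat in capitals.
RARB: gggtaggGTTCACCGAAAGTTCActcgcat
CYP26A1: ttaaagaTGAACTTTGGGTGAACtaattgt
The CYP26A1 repeat is on the opposite strand, and read there it shares 15 of 16 bases with that of RARB, differing by G8C (RARB base first, counted from the 5′ end of the repeat). Both genes had at most 8 reads in any sample. A direct repeat of AGGTCA with 5 bases between its 2 copies was present in 0 of the 19 promoters and in 2 of all 35116 (0.00570%), and AGGTCA on its own, which that repeat also holds, in 4 of the 19 and in 13.8% of all.

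The E-box CACGTG, the motif bound by MYCN with its partner MAX, was present in 2 of the 19 promoters and in 7.26% of all. It is palindromic, so both strands hold it together. The stretch of RARA lies at chr17:38474517-38474546, 21 to 50 bases after one of its 3 listed starts, and those of CYP26A1 at chr10:94833144-94833173 and chr10:94833200-94833229, all on the plus strand, with the E-box in capitals.
RARA: gtttcagcctccgCACGTGactcgctatgg
CYP26A1, distal: tcagtttccccaCACGTGggaggaggcagc
CYP26A1, proximal: ttgcttcctcatCACGTGgaagagagccca
The promoters of CRABP1 and RXRA, the members that passed the threshold, held none of the 4 motifs in these windows. Those of RARG, CRABP2 and CYP26B1 held none either. Such matches describe letters and not binding.

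Around the 10 members, 93 other listed genes of retinoid biology were examined in 5 lists, of which 48 passed the filter on low values. Of these 48, 15 rose and 15 fell after knockdown (62.5%, against 48.1% of all tested genes), and their median log2 fold change was 0.04. The retinol receptor STRA6 rose, the retinol dehydrogenase RDH10 fell, and the retinoic acid carrier FABP5 had the largest change of the 48.

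Among 24 genes of retinoid uptake, storage and synthesis, 8 were tested, of which 3 were higher, 3 were lower and 2 did not pass. STRA6, the cell surface receptor that takes up retinol from its blood carrier, had 79.2 and 70.3 RPKM in Ctrl against 129.5 and 145.3 RPKM after knockdown, a log2 fold change of 0.87 (standard error 0.0946, adjusted p = 0.00854 from limma). DGAT1, an acyltransferase that can esterify retinol, rose by 0.42 on the log2 scale, but did not pass with quantile normalization (0.33, adjusted p = 0.0814 from limma). Both had MYCN KD values above both Ctrl values.

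RDH10, the main enzyme that oxidizes retinol to retinaldehyde in the embryo, fell from 3.18 and 3.59 RPKM in Ctrl to 1.44 and 1.28 RPKM after knockdown, a log2 fold change of -0.89 (standard error 0.0732, adjusted p = 0.00570 from limma). RDH13 fell by 0.41 and RDH14 by 0.13 on the log2 scale, the latter at an adjusted p of 0.0495 from limma. RDH14 did not pass with each sample rescaled to the same sum of RPKM (-0.10, adjusted p = 0.104 from limma). Of the enzymes that make retinoic acid itself, ALDH1A1 had 0 reads in every sample and ALDH1A2 had at most 4. ALDH1A3 had 49 and 55 reads in Ctrl and 177 and 156 reads in MYCN KD, or 0.398, 0.477, 1.69 and 1.40 RPKM, and fell just short of the filter. In the fit without the filter ALDH1A3 had a log2 fold change of 0.82 (standard error 0.0767, adjusted p = 0.0125 from limma).

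FABP5, a fatty acid carrier that can also deliver retinoic acid to PPARD, fell from 85.6 and 83.1 RPKM in Ctrl to 29.8 and 30.7 RPKM after knockdown, a log2 fold change of -1.45 (standard error 0.0389, adjusted p = 0.00359 from limma). The ratio of CRABP2 to FABP5 was 0.380 and 0.377 in Ctrl against 1.02 and 1.03 after knockdown. PPARD itself rose by 0.32 on the log2 scale (adjusted p = 0.00990 from limma). Of the 5 genes in this list, which also held CYP26C1, RXRB and the CYP26 electron donor POR, 3 were tested. Of these, 1 was higher and 1 was lower (66.7% called, against 48.1% of all tested genes).

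Among 13 partners of RXR other than the RARs, 6 were tested, 3 were higher and 0 were lower. These were PPARD, NR4A1 (log2 fold change 0.23) and PPARA (0.23). PPARA did not pass with quantile normalization (0.11, adjusted p = 0.124 from limma), so the count of 3 depends on the scaling. The other 3 tested, among them the thyroid hormone receptor gene THRA (-0.12, adjusted p = 0.292 from limma), did not pass. Of 22 coregulators, 20 were tested, 5 being higher and 5 lower. The receptor coactivators NCOA2 and NCOA1 rose by 0.56 and 0.49 and the ligand-dependent corepressor LCOR by 0.71 on the log2 scale. The arginine methyltransferases PRMT1 and CARM1 fell by 0.74 and 0.40 and the corepressor subunit TBL1X by 0.62. The corepressor NCOR1 (-0.19, adjusted p = 0.145 from limma) did not pass.

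Genes that retinoic acid is known to induce in one cell type or another moved in both directions. Of 32 listed, 14 were tested, 5 were higher and 6 were lower (78.6% called, against 48.1% of all tested genes). The median log2 fold change of the 14 was -0.05, against 0.03 over all tested genes. TGM2, a transglutaminase, had 7.33 and 6.46 RPKM in Ctrl against 16.7 and 18.8 RPKM after knockdown, a log2 fold change of 1.25 (standard error 0.0943, adjusted p = 0.00510 from limma). RET, a receptor tyrosine kinase, rose from 62.2 and 60.8 RPKM to 109.7 and 112.1 RPKM, a log2 fold change of 0.84 (standard error 0.0346, adjusted p = 0.00359 from limma), and STRA6 belongs to this list too. CEBPB fell by 0.71, the orphan receptor gene NR2F2 by 0.66 and the homeobox gene MEIS2 by 0.41 on the log2 scale. The 10 HOXA and HOXB genes of the list, among the classical targets in embryonic cells, were each below 0.1 RPKM in every sample, as was NTRK2.

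**Figure D4:**
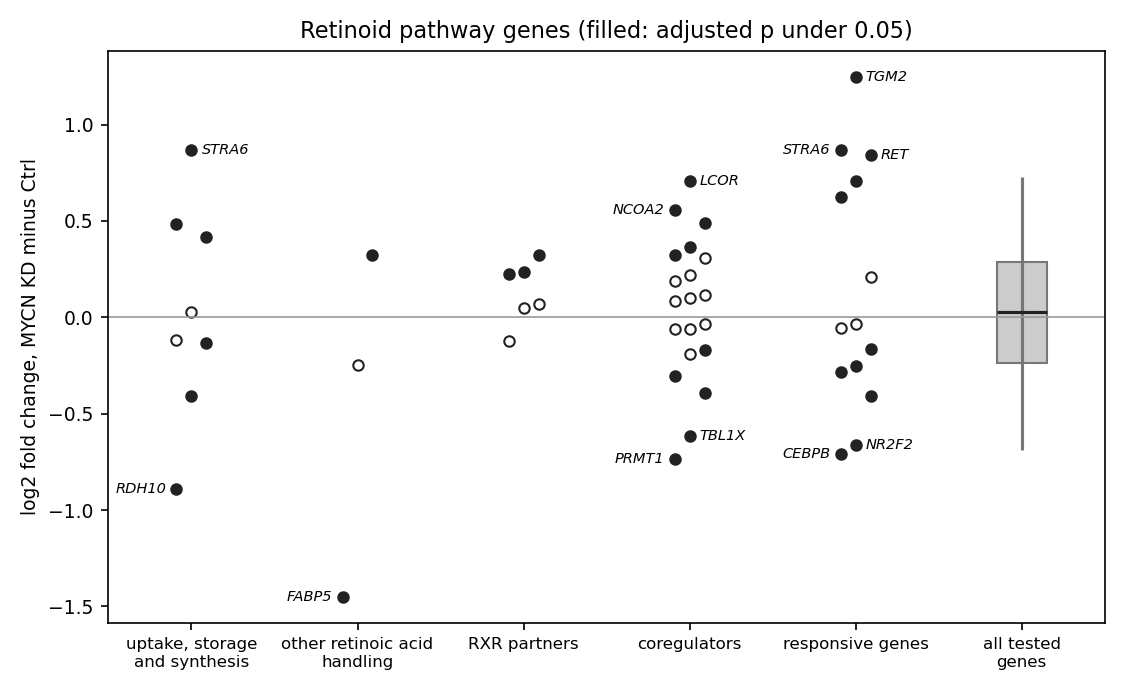
Log2 fold change of (RPKM + 1), MYCN KD minus Ctrl, of each tested gene in the 5 retinoid lists, filled where it passed the adjusted threshold, beside all 11411 tested genes (line at the median, box from the 25th to the 75th percentile, whisker from the 5th to the 95th). FABP5 at -1.45 and TGM2 at 1.25 lie at the ends, and each list other than the RXR partners (6 genes tested) holds filled points on both sides of 0.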

How the data were processed

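RNA-seq of 4 BE(2)C samples, 2 of Ctrl and 2 of MYCN KD, was used, grouped by the sample titles. The authors aligned reads to hg19 (HISAT2 2.1.0 per the labels), counted them on RefSeq genes with featureCounts, modelled counts with DESeq2 and took out unwanted variation with RUVSeq (variant and number of factors not given in the sources used here). They deposited RPKM values, 1 file per sample, made from those normalized counts. RUVSeq can change the spread between samples, and its effect was not tested.

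Reads were computed here from RPKM: each total followed from microRNA hairpins of known length, and each gene's reads were the smallest whole numbers that suited all samples within 0.0001 (100.0% of 19908 genes above 0). They are normalized reads and not reads sequenced. Intervals from them treat them as raw counts and cover at most counting error.

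The test was limma 3.58.1 (R 4.3.3; lmFit, then eBayes with a trend) on log2(RPKM + 1) of genes whose mean reached 1 RPKM, without a replicate block, with Benjamini-Hochberg adjustment over all of them. Alternatives were a pseudocount of 0.1, no filter, a mean of at least 5 RPKM, quantile normalization, the same sum of RPKM, a replicate block, eBayes without a trend, omission of each sample and limma voom on the reads. The code was checked on simulated counts. Members and lists were chosen with earlier results of these data known. Named were the members, MYCN, the 3 highest and 3 lowest genes past the threshold in each list, and ALDH1A1, ALDH1A2, ALDH1A3, RXRB and CYP26C1. Other genes, among them THRA, POR, NCOR1 and NTRK2, were named outside this rule. Some genes that this rule names are not reported here. Positions are from GENCODE 44 on GRCh37 (the same assembly as hg19). Python 3.11.15, scipy 1.17.1 and matplotlib 3.10.9 were used.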

Additional observations from a re-analysis of the deposited data

How the results depend on the processing

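RXRA and MYCN passed the threshold in the same direction under every alternative that could test them (RXRA lies below a mean of 5 RPKM). RARA passed the threshold with each sample rescaled to the same sum of RPKM (0.50), with the replicate block (0.44, adjusted p = 0.0156) and with each sample left out in turn (0.32 to 0.56). These replicate block and left-out fits from limma have 1 residual degree of freedom, so their variance follows mean expression rather than a gene's own spread, and a lone sample is taken to vary like the other group. RARG passed with quantile normalization (0.16) and without the trend (0.20), but not with the replicate block (0.20, adjusted p = 0.390). CRABP1 lost the threshold without a filter (0.50, adjusted p = 0.0677, as more genes were tested), and CRABP2 changed sign with the same sum of RPKM (0.0138). On the log2 scale RARB went from -0.03 to -0.20 and DHRS3 from 0.04 to 0.32 with a pseudocount of 0.1, which raises the weight of single reads, and RARB was 0.01 without Ctrl replicate 2.

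The counts of all genes were 2890 higher and 2599 lower, and with a mean of at least 5 RPKM they were 1868 and 2106, of 7859 tested. They were 3279 and 2122 with the same sum of RPKM and 2901 and 2993 with quantile normalization, so that 60.7% and 49.2% of the calls were higher, against 52.7%. Of the 48 retinoid pathway genes 15 were higher and 15 lower. The lower count was 9 with the replicate block, 9 without Ctrl replicate 1 and 8 without MYCN KD replicate 1 (8 to 11 over the 4 samples left out), and the cause was not tested. With the replicate block the calls of RDH14, PPARD, PPARA, NR4A1, HOXD3 and HOXD4 were lost (adjusted p = 0.0948 to 0.544 from limma). Those of the coregulators GPS2, ZNF423, CREBBP and SIN3A and of the responsive gene NR2F1 were lost too (adjusted p = 0.0606 to 0.484 from limma). The higher count of the 48 with this block was 10, and that of all tested genes was 2077. The labels do not say what the replicate numbers share, and same-numbered samples deviated in opposite directions (r = -0.98 with 2 pairs). With crossed numbers, an alternative chosen after seeing the data, 5910 genes were higher and 5262 lower of 11411 tested. Of the 48 pathway genes, 25 were higher and 23 lower. Nearly every gene passed in this fit, so its counts are not read as a stronger result. RXRG, CYP26A1 and CYP26B1 gave no value under any setting, and at this depth a gene with fewer than 3 reads in a sample cannot be told from 0.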

Other observations

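Further retinoid pathway genes that the rule for named genes did not reach are given here after their values were seen. All but KAT2B, which was not tested in the main fit, passed the threshold. Among the retinoic acid responsive genes, the T-box gene TBX3 rose from 58.7 ± 2.23 to 96.5 ± 3.52 RPKM (SD, n = 2) and the neural crest gene SOX9 from 2.34 ± 0.103 to 4.15 ± 0.172 RPKM, with log2 fold changes of 0.71 and 0.63 (adjusted p = 0.00476 and 0.00570 from limma). HOXD3 fell by 0.25 and HOXD4 by 0.28 on the log2 scale (adjusted p = 0.0192 and 0.0114), the latter from 1.47 ± 0.0351 to 1.03 ± 0.00937 RPKM. These 2 genes were above a mean of 1 RPKM, whereas the 10 HOXA and HOXB genes of the list were below 0.1 RPKM in every sample. Among the coregulators, the acetyltransferase gene KAT2B was below the filter, at 0.474 and 0.596 RPKM in Ctrl against 1.56 and 1.25 RPKM after knockdown.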
